A study of Mus musculus with 4 samples.

Results

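Collagens are the proteins that 44 genes of the mouse gene list encode under names of the form ColNaM, and all 44 were examined here. They were taken by that name alone from the 31054 rows of the count matrices, with no use of any measured value. By structure they fell into 11 fibrillar chains, 6 chains of the basement membrane network (type IV), 6 chains of beaded filaments (type VI), 9 fibril-associated chains, 4 transmembrane collagens, 3 short chains, 2 multiplexins, the anchoring fibril chain Col7a1 and 2 others. The cells came from skin tumours of mice that in all 4 libraries carried Lgr5CreER, p53fl/fl and, at the Rosa26 locus, Rosa26-YFP+/+. In these mice tamoxifen turns on Cre in cells that express Lgr5, a gene of hair follicle stem cells, and the recombined cells lose p53 and carry a YFP reporter. Tamoxifen was given as 4 injections of 2.5 mg from postnatal day 28, and tumours appeared at 7 to 9 weeks. Of the 4 libraries, 2 were controls, labelled with no agent, and 2 came from tumours treated with NP137, an antibody that blocks netrin-1, injected at 10 mg/kg every 2 days, beginning 4 weeks after tamoxifen and ending at death. Tumours were digested with collagenase type I, live cells were sorted without selection for a marker, about 10000 cells were loaded per library, and transcripts were counted from their 3′ ends as unique molecular identifiers (UMIs) on the 10x platform. The labels do not say whether the libraries came from separate animals, so every p-value below measures only the spread between these libraries.

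Each collagen molecule is a triple helix of chains. Fibrillar chains such as Col1a1, Col1a2 and Col3a1 assemble into the fibres of dermis and of tumour stroma, type V and XI chains are built into those fibres, and fibril-associated collagens such as Col12a1 and Col14a1 coat them. Type IV chains form the sheet under epithelia and around vessels, Col18a1 and Col15a1 lie in or next to that sheet, Col7a1 anchors it to the dermis, and Col17a1 is part of the hemidesmosome that ties basal keratinocytes to it. In skin the fibroblast is the textbook source of fibrillar collagen, and carcinoma cells that take on mesenchymal traits can also transcribe these genes.

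The 4 libraries held 5301 to 14513 cells after filters, with medians of 2352 to 6044 UMIs per cell and 69517664 to 149021188 UMIs per library in all barcodes. Collagens gave 410955 to 2633056 UMIs per library. Any pair of libraries shared 24 to 86 barcodes, at most 0.578% of the smaller. Xist, transcribed from the inactive X chromosome of females, had a UMI in 64.4% and 68.1% of cells of control 1 and NP137 2, in 0.623% of control 2 and in 28.9% of NP137 1, and Y-linked genes had a UMI in 51.7% of cells of control 2 and 17.8% of NP137 1. NP137 1 was the library with both signals, which its labels do not describe. Cells were clustered with the collagens left out of the variable genes, and classes were named from marker genes. The classes nevertheless rest on other genes of the same cells, so a difference in collagens between classes is not independent of how the classes were made.

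YFP-positive cells, taken as tumour cells, were those of the 5 clusters in which at least 50% of cells had a YFP UMI. The nearest clusters on either side of that threshold had 72.2% and 39.7%. Epithelial-like cells outside the YFP-positive clusters lay in clusters with 24.2% and 39.7%. An unnamed cluster with few UMIs, with 1770 of its cells in control 2, had 19.0% and was not counted as YFP-positive. Crisp1, Mgp and Clu were among its leading genes and among those of a YFP-positive cluster of control 2. Whether it held tumour cells was not tested. The YFP-positive clusters were split by Epcam, an adhesion protein of epithelia. At least 75.1% of cells had an Epcam UMI in Epcam-high clusters and at most 19.0% in Epcam-low clusters. Of the YFP-positive cells, 4388 of 4756 (92.3%) were Epcam-low in control 1 and 1121 of 1142 (98.2%) in control 2, against 185 of 2985 (6.20%) in NP137 1 and 14 of 868 (1.61%) in NP137 2. No exact 95% binomial interval of the shares of cells by class and state was wider than 2.23 percentage points, and these intervals cover counting error only. Vim, a mesenchymal filament gene, stood at 6055, 4744 and 6105 counts per 1e6 UMIs of the class (CPM) in the Epcam-low cells of control 1, control 2 and NP137 1. Pdgfra, a fibroblast receptor, was at 167, 180 and 42.3 CPM in the same cells, at 2.40 to 8.61 CPM in Epcam-high cells and at 158 to 375 CPM in fibroblast-like cells. Lum, a proteoglycan gene of fibroblasts, was at 12.6 to 59.0 CPM in Epcam-low and 589 to 1152 CPM in fibroblast-like cells. The sum of 12 fibroblast markers was at 4313, 2747 and 3709 CPM in Epcam-low cells and 8784 to 12087 CPM in fibroblast-like cells, without overlap, and YFP at 475 to 910 CPM against 2.91 to 49.8 CPM. The NP137 1 Epcam-low cells also had 3635 CPM summed over 11 epithelial markers, against 539 and 444 CPM in the controls.

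Tumour cells held a larger share of the collagen transcripts in both controls than in both NP137 libraries. YFP-positive cells contributed 54.1% of the collagen UMIs of control 1 and 46.3% of control 2, but 8.04% of NP137 1 and 1.32% of NP137 2. Fibroblast-like cells outside the YFP-positive clusters gave 33.2% and 29.3% in the controls, 23.8% in NP137 1 and 80.7% in NP137 2. A further cluster, led by the protease genes Gzme, Gzmd and Mmp13 and which was given no name because markers of another class outnumbered fibroblast markers among its leading genes, gave 7.00% and 0.510% in the controls, 59.5% in NP137 1 and 11.2% in NP137 2. In this clustering the largest stromal source thus differed between the 2 NP137 libraries, Gzme-led in the first and fibroblast-like in the second. That difference depended on the processing. With no doublets removed, Gzme-led cells gave 12.8% and fibroblast-like cells 58.2% of the collagen UMIs of NP137 1. In NP137 2 they then gave 8.96% and 42.4%, and unnamed clusters 36.4%. Fibroblast-like cells were thus the larger named stromal source in both NP137 libraries there. The other unnamed clusters held 33.9% of the cells and 4.89% of the collagen UMIs of control 2.

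**Figure D1:**
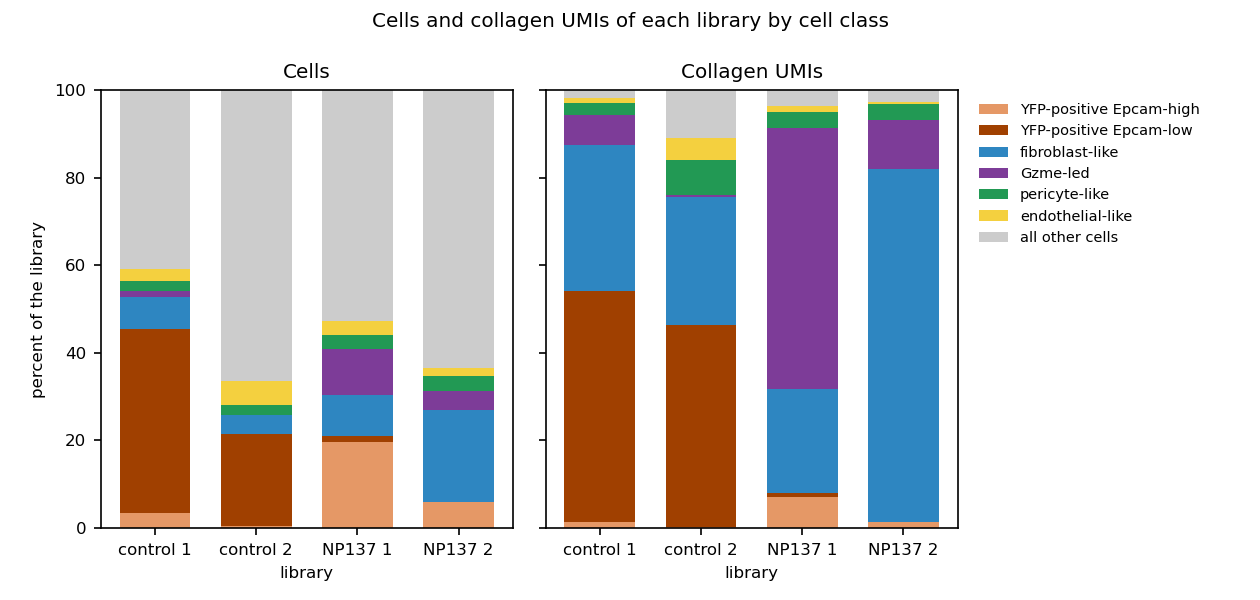
Stacked bars give the percent of each library's cells (left) and of its collagen UMIs (right) that fall in each cell class, with the 4 libraries on the horizontal axis. YFP-positive Epcam-low cells fill 52.7% and 46.1% of the collagen bars of the controls and 1.06% and 0.0104% of those of NP137 1 and NP137 2.

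The summed collagen level differed between cell classes, and in YFP-positive cells also widely between libraries. It was highest in fibroblast-like and Gzme-led cells. Fibroblast-like cells had 552, 498, 353 and 491 collagen UMIs per 10000 UMIs in control 1, control 2, NP137 1 and NP137 2. The Gzme-led cluster had 537, 444 and 376 in the 3 libraries with at least 20 such cells. Pericyte or smooth muscle-like cells followed with 199, 268, 169 and 239. Vessel endothelial cells had 74.8, 90.7, 49.7 and 81.4, and macrophage or monocyte-like cells, which are not known as makers of fibrillar collagen, had 8.56, 5.38, 4.44 and 12.3 and are used as the background level. YFP-positive cells had 98.8 and 59.2 in the controls and 13.3 and 20.6 with NP137. Both NP137 values lay under both control values there, with a mean difference of −62.0 per 10000 and a 2-sided exact permutation p of 0.333, the smallest that 6 assignments of 4 libraries allow. The same exact permutation test gave p = 0.333 in fibroblast-like cells and 0.667 in pericyte-like and in endothelial cells, where the groups overlapped.

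Fibrillar chains made up 80.0% of all collagen UMIs, pooled over libraries, of which NP137 2 gave the largest number. By class the pooled mix differed. Fibrillar chains took 88.1% of the collagen of fibroblast-like cells and 76.1% of that of Epcam-low tumour cells. In Epcam-high tumour cells they took 18.7%, behind the transmembrane collagens with 34.1% and the multiplexins with 25.3%. In endothelial cells the basement membrane chains took 65.1% and the multiplexins 18.4%, and in pericyte-like cells the fibrillar chains took 52.7% and the basement membrane chains 21.8%. By library, the fibrillar share ran from 79.6% to 89.4% in fibroblast-like cells, 58.1% (NP137 1) to 76.5% in Epcam-low, 11.5% to 27.2% in Epcam-high, 43.5% to 59.1% in pericyte-like and 5.08% to 16.8% in endothelial cells. The Gzme-led cluster was at 74.7% fibrillar, 11.5% beaded filament and 7.59% fibril-associated. Among the cell classes, the mean CPM over libraries peaked in the Gzme-led cluster for 14 members, in fibroblast-like cells for 11 and in pericyte-like cells for 7. It peaked in epithelial-like cells outside the YFP-positive clusters for 4 and in blood endothelial-like cells for 3 (Col4a2, Col13a1 and Col15a1). It peaked in YFP-positive cells for 2 (Col4a4 and Col4a5) and in T or NK-like cells for Col11a2. The Gzme-led mean is over the 3 libraries with at least 20 such cells. Col9a1 and Col19a1, fibril-associated chains, had 5 and 3 UMIs in all cells and are not described further.

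**Figure D2:**
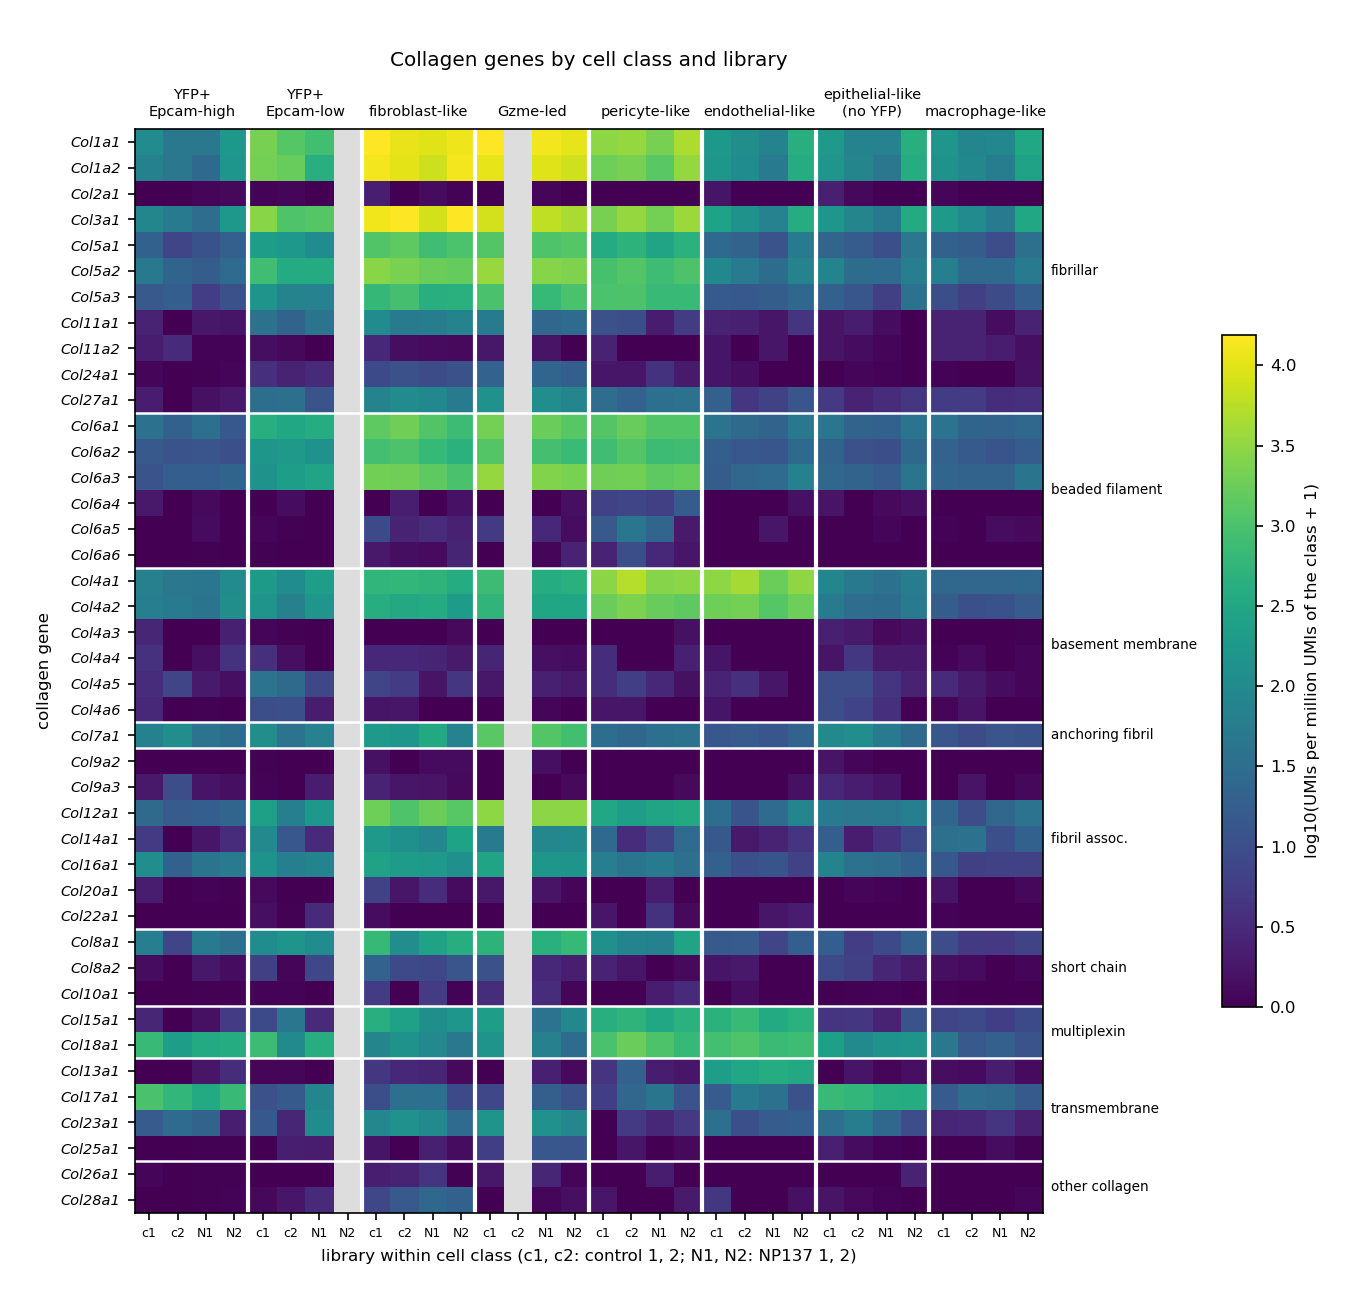
Each cell of the map shows log10(CPM + 1) of a collagen gene (rows, by structural group; Col9a1 and Col19a1 left out) in a class and library (columns); grey marks classes with under 20 cells in that library. Col1a1, Col1a2 and Col3a1 are brightest in fibroblast-like and Gzme-led columns, Col4a1 and Col4a2 in pericyte-like and endothelial columns, and Col17a1 in both epithelial columns. The epithelial-like columns labelled as without YFP are the cells outside the YFP-positive clusters, part of which had a YFP UMI.

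The DNA just upstream of the genes was read for 5 members whose cell class sets them apart. The windows are from the RefSeq promoter table (GRCm38.p6), which matched 35 of the 44 members, and end at the base before the gene's start in the GENCODE annotation. Each is written 5′ to 3′ on the gene's own strand, with matches to the motifs searched in capitals. Col3a1 is the fibrillar chain with the most UMIs, Col13a1 was higher in endothelial cells, Col17a1 had its highest mean in epithelial-like cells, and Col4a5 and Col4a6 are a head-to-head pair whose transcripts were highest in YFP-positive or epithelial cells.
Col3a1, chr1:45311288-45311537, plus strand: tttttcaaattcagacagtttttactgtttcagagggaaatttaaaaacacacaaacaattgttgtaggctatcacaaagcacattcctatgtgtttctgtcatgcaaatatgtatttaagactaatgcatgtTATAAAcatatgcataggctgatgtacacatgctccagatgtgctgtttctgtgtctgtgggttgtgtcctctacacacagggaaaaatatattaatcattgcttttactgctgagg
Col13a1, chr10:61979109-61979358, minus strand: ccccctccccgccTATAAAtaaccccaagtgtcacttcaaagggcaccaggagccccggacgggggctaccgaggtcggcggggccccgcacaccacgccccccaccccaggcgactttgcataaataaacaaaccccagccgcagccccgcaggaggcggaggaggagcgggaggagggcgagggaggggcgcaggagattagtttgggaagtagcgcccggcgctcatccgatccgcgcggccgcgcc
Col17a1, chr19:47692095-47692292, minus strand: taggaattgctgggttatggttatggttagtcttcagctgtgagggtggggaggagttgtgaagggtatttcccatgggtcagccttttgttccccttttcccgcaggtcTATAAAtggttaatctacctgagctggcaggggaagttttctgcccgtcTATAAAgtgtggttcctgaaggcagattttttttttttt
Col4a5, chrX:141475169-141475384, plus strand: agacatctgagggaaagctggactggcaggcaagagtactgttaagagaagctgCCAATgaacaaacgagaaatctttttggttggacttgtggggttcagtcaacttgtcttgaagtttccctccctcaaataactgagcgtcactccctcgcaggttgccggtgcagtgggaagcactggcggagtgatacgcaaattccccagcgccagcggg
Col4a6, chrX:141474077-141474326, minus strand: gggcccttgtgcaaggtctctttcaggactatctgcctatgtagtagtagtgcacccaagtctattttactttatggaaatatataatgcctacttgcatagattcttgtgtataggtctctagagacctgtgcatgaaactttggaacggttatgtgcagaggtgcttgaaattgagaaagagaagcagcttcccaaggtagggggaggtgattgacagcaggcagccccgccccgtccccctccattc
Both strands were searched for 4 motifs. The letters of the TATA box, TATAAA, stand in the Col3a1 window, in that of Col13a1 and at 2 places in that of Col17a1. Their first base lies 117 bases before the gene's start in Col3a1, 237 in Col13a1, and 88 and 39 in Col17a1. This motif is present in 12.4% of all 32851 windows of 250 bases and in 5 of the 35 members. The box read by NF-Y, CCAAT, stands in the Col4a5 window, which is 216 bases long, and in 30.5% of windows cut to that length. The E-box that Snail and Zeb factors can bind (CACCTG) and the AP-1 motif (TGANTCA) were matched in none of the 5, and the Col4a6 window had no match to any of the 4. Over the 35 members the second motif was matched in 13 against 33.8% of all windows, the E-box in 4 against 17.2%, and the AP-1 motif in Col6a1 alone against 6.75%. A match describes letters in the window and shows no binding. Col4a5 starts at chrX:141475385-141689234 on the plus strand and Col4a6 at chrX:141165403-141474076 on the minus strand, so 1308 bases part their starts. Col4a1 and Col4a2 on chromosome 8 also lie head to head and overlap by 22 bases.

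Most members tested differed between tumour states. Epcam-low and Epcam-high YFP-positive cells were compared within control 1, control 2 and NP137 1, the 3 libraries with at least 20 cells of each state. Of the 31 members tested, 21 were higher in Epcam-low cells and 0 lower (edgeR quasi-likelihood test with library as a term, Benjamini-Hochberg adjustment over 13605 genes, adjusted p under 0.05). Of all genes tested, 8.51% were called higher and 6.34% lower. The median log2 difference over the 31 was 3.20, against 0.00 over all genes. DESeq2 called 20 members higher and Col17a1 lower.

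Col3a1, the type III fibrillar chain (chr1:45311538-45349706), had 2749, 1078 and 1239 CPM in the Epcam-low cells of control 1, control 2 and NP137 1, and 83.2, 49.5 and 31.1 CPM in their Epcam-high cells. Every Epcam-low value lay above every Epcam-high value, a log2 difference of 4.93 ± 0.24 (SE; edgeR adjusted p = 2.64e-06). Col1a1, a chain of type I collagen (chr11:94936224-94953042), had 2128, 1198 and 842 CPM against 104, 47.4 and 47.0. Its difference was 4.32 ± 0.22 (edgeR adjusted p = 3.12e-06), again without overlap. Col1a2, the partner chain of type I, had 2087, 1633 and 423 CPM against 69.1, 45.2 and 25.9, with NP137 1 the lowest of the Epcam-low values (4.63 ± 0.29).

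The minor fibrillar chains followed. Col5a2, built into type I fibres, had 795, 374 and 383 CPM against 48.8, 21.5 and 16.005 (4.21 ± 0.24). Col11a1, of the related type XI, had 35.8, 20.3 and 40.0 CPM against 1.65, 0 and 0.891 (4.99 ± 0.47), so that NP137 1 was not below the controls in this state. Col27a1, a fibrillar chain known from cartilage, had 31.2, 34.3 and 11.4 CPM against 1.10, 0 and 0.543 (4.68 ± 0.50, edgeR adjusted p = 1.45e-04). For Col24a1, another minor fibrillar chain, 3 UMIs in the Epcam-high cells stood against 175 in the Epcam-low cells, a ratio per UMI of 23.9 with an exact 95% counting interval of 8.04 to 117.

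Outside the fibrillar group, the beaded-filament chain Col6a3 had 141, 217 and 283 CPM in Epcam-low cells against 10.8, 17.2 and 16.7 (3.79 ± 0.25), and Col6a1 and Col6a2 differed by 3.59 and 3.62. In this chain NP137 1 was the highest of the Epcam-low values. Col12a1, which coats type I fibres, had 239, 62.4 and 169 CPM against 27.1, 15.1 and 16.7 (2.97 ± 0.29). Col14a1, of the same group, had 92.3, 12.8 and 2.29 CPM against 4.22, 0 and 0.775, so that only the 2 controls' Epcam-low values stood clear of the Epcam-high range (3.70 ± 0.65, edgeR adjusted p = 0.00545). Col28a1, a collagen known from the sheath of peripheral nerves, was called on 38 UMIs against 2, a ratio of 7.78 with an exact 95% interval of 2.01 to 66.6, and DESeq2 did not call it.

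The basement membrane chains differed less, except for the X-linked pair. Col4a1 had 189, 109 and 226 CPM in Epcam-low against 66.0, 45.2 and 42.9 CPM in Epcam-high cells, a log2 difference of 1.72 ± 0.26. Col4a5, a chain of the type IV networks of epithelial basement membranes, had 38.7, 26.8 and 6.86 CPM against 2.38, 6.46 and 1.05 (3.17 ± 0.50, edgeR adjusted p = 0.00175). Col4a5 in the NP137 1 Epcam-low cells was thus near the highest Epcam-high value. The latter was from control 2, where the Epcam-high sum rests on 21 cells with 464485 UMIs. Col18a1, whose C-terminal fragment is endostatin, had 735, 100 and 412 CPM against 692, 213 and 366, and did not pass the test (−0.31 ± 0.26, edgeR adjusted p = 0.495). Col7a1 was likewise at 117, 38.3 and 70.9 CPM against 69.1, 114 and 38.5, with overlapping groups.

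Col17a1, the hemidesmosome collagen (chr19:47646344-47692094), went the other way. It had 956, 592 and 370 CPM in the Epcam-high cells and 9.78, 14.6 and 82.3 CPM in the Epcam-low cells of control 1, control 2 and NP137 1, with no overlap. The log2 difference of −4.89 ± 1.34 did not pass edgeR (adjusted p = 0.156) and passed DESeq2 (adjusted p = 2.04e-10). The NP137 1 Epcam-low cells, which had the highest Col17a1 of the 3, were also those with the highest epithelial marker sum. The part of other cells' RNA in that value was not tested.

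At equal depth and in CPM, Col1a1 in Epcam-high cells did not exceed the background level of macrophage-like cells. Without thinning, its share of Epcam-high cells lay above the macrophage-like share in control 1, NP137 1 and NP137 2, at higher medians of UMIs per cell. With each cell thinned to 2000 UMIs, Col1a1 had a UMI in 83.6% (exact 95% interval 82.4 to 84.7), 77.1% (74.5 to 79.5) and 50.4% (41.2 to 59.6) of Epcam-low cells of control 1, control 2 and NP137 1. In Epcam-high cells it had a UMI in 18.2% (14.3 to 22.7), 8.83% (7.78 to 9.98) and 25.1% (22.2 to 28.2) in control 1, NP137 1 and NP137 2, where enough cells were left, and in macrophage or monocyte-like cells of the same libraries in 26.3%, 13.3% and 43.8%. The Epcam-high share thus lay below the macrophage share in each of these libraries, while the Epcam-low share lay above it in control 1 and NP137 1. Without thinning, the Epcam-low shares were 93.9%, 98.3% and 59.5%, at medians of 7846.5, 27600 and 3061 UMIs per cell. The Epcam-high shares were then 59.0%, 27.6% and 84.5% in control 1, NP137 1 and NP137 2, at medians of 12451.5, 8910.5 and 18710.5 UMIs, and the macrophage-like shares 44.2%, 15.4% and 79.5%, at medians of 3881, 2087.5 and 5836.5 UMIs. In CPM, Col1a1 stood at 104, 47.4, 47.0 and 171 in Epcam-high cells of control 1, control 2, NP137 1 and NP137 2, and at 154, 83.2, 88.4 and 307 in macrophage-like cells.

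**Figure D3:**
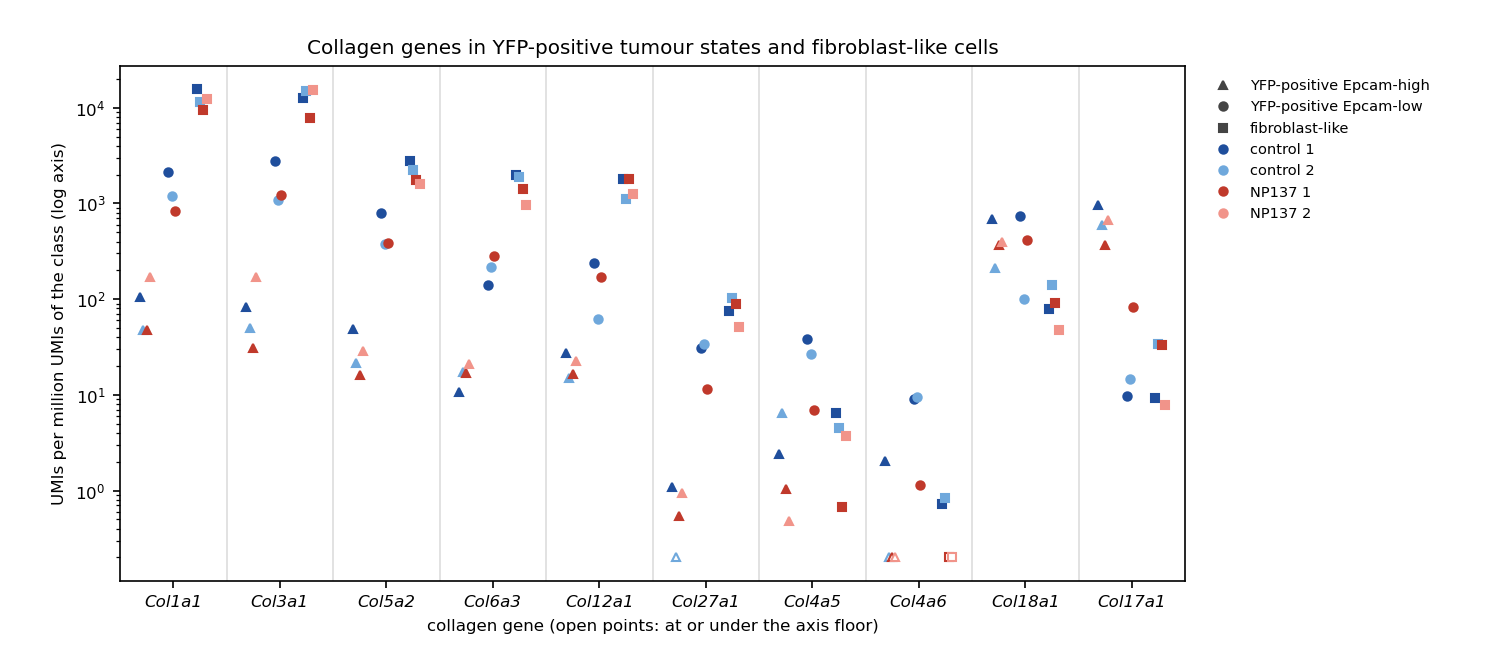
Points give the CPM (log axis) of 10 collagen genes in each library, as triangles for Epcam-high YFP-positive cells, circles for Epcam-low YFP-positive cells and squares for fibroblast-like cells; open points are at or under the floor of the axis. For Col1a1 the circles (842 to 2128) lie between the triangles (47.0 to 171) and the squares (9580 to 15544), while for Col17a1 the triangles are on top.

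Some genes that act on collagen also differed between states. Of 12 genes of procollagen processing and cross-linking, all tested, 5 were higher in Epcam-low cells and 0 lower. These were the procollagen N-proteinase Adamts2 (log2 difference 4.57 ± 0.32) and the cross-linking oxidases Lox (4.38 ± 0.33), Loxl1, Loxl2 and Loxl3. Of 18 tested genes of modification and folding, 6 were higher and 0 lower, among them Serpinh1, the collagen chaperone HSP47, with 1.65 ± 0.30. Of 7 tested receptors and uptake genes, 3 were higher, including the fibrillar collagen receptor Ddr2 (2.33 ± 0.35), and Itga2, the α2 chain of an epithelial collagen integrin, was lower (−2.48 ± 0.29, edgeR adjusted p = 2.83e-04).

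The Epcam-low state was not uniform. It held 3 clusters, and each was mostly of 1 control library, so cluster and library cannot be told apart for most of it. The cluster led by Mme, Matn4 and Gdf10 had 2289 of its cells in control 1, where Col1a1 stood at 3631 CPM and Col3a1 at 5319 CPM, and 27 cells in NP137 1, where they stood at 2206 and 3815 CPM. The cluster led by Acan, Msln and Krt8 was present in control 1, control 2 and NP137 1 with 2094, 25 and 158 cells, and had Col1a1 at 1139, 1906 and 621 CPM and Col3a1 at 1060, 2298 and 820 CPM. The cluster led by Crisp1 and Sox2 had 1083 cells in control 2, with 1166 CPM of Col1a1 and 1019 CPM of Col3a1.

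Other members varied more among these clusters. Col12a1 was at 535 and 711 CPM in the Mme-led cells of control 1 and NP137 1, and at 43.5 to 93.9 CPM in the Acan-led and 60.3 CPM in the Crisp1-led cells. In control 1, where both clusters have over 2000 cells, Col14a1 was at 223 CPM in the Mme-led cells and 6.43 CPM in the Acan-led cells. Col4a5 there was at 70.1 and 18.0 CPM. Col15a1 was at 42.8 CPM in the Crisp1-led cluster and at most 14.2 CPM in the others, while Col18a1 was lowest there, at 95.6 CPM against 308 to 856. These are descriptions of single libraries, with no test.

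In order to ask whether collagens differed with NP137 in tumour cells, the YFP-positive cells of each library were summed and the 2 groups compared. None of the 29 members tested passed (edgeR, adjusted over 14007 genes), while 20 had an unadjusted p under 0.05, of which 17 were lower with NP137 and 3 higher. Over all genes 3246 of 14007 had an unadjusted p under 0.05, and edgeR called 0.00714%. DESeq2 called 19 members, 17 of them lower, where it called 8.44% of all genes lower. In 20 of the 29 members both NP137 values lay under both control values, as in 40.1% of all genes tested, and in 3 they lay above, as in 2487 of the 14007 genes. The median log2 fold change was −2.84 for the members and −0.03 for all genes. The smallest adjusted p of a member in edgeR was 0.0713, shared by 7 members, and the 2 groups of 2 libraries left 2 residual degrees of freedom. Without control 1 edgeR called 5 members and without NP137 1 it called 6.

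Per library, Col27a1 (chr4:63214004-63334991) was at 27.96 and 33.8 CPM in the controls and 0.8996 and 0.951 CPM with NP137 (log2 fold change −4.80 ± 0.37). Col5a2 was at 714 and 369 CPM against 28.04 and 29.2 (−4.003 ± 0.455), and Col4a5 at 34.7 and 26.5 CPM against 1.24 and 0.475 (−4.90 ± 0.56). In these 3 members both NP137 values lay far below both control values. Col1a1 was at 1909 and 1181 CPM against 73.1 and 174 (−3.38 ± 0.60, edgeR adjusted p = 0.0884), and Col3a1 at 2460 and 1063 CPM against 70.7 and 177 (−3.57 ± 0.72, edgeR adjusted p = 0.0973). Col1a2 was at 1868 and 1610 CPM against 38.9 and 159 (−3.85 ± 0.79). Col4a6 had 2 UMIs in the NP137 libraries and 718 in the controls, a control to NP137 ratio of 189 with an exact 95% interval of 52.2 to 1566.

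Not all members were lower. Col17a1 was at 112 and 22.9 CPM in the controls and 361 and 675 CPM with NP137 (3.17 ± 0.90, edgeR adjusted p = 0.138). Col13a1 and Col9a3 were the other members above in both, at CPM of 2.50 or less in every library. Col18a1, at 731, 102, 368 and 397 CPM in control 1, control 2, NP137 1 and NP137 2, showed no separation of the groups (0.10 ± 0.91), and Col7a1, at 112, 39.4, 39.5 and 29.5 CPM, did not either.

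The share of Epcam-low cells moved with this contrast, from 92.3% and 98.2% in the controls to 6.20% and 1.61% with NP137, and so did the sum of 11 epithelial markers, at 2381 and 750 CPM against 18217 and 20732. The sum of 12 fibroblast markers was at 3957 and 2713 CPM against 1144 and 745. Within the Epcam-low clusters alone, in control 1, control 2 and NP137 1, edgeR called 0 of 31 members and 0 of 14768 genes, with 6 members at an unadjusted p under 0.05, and DESeq2 called 3 members. That restriction was chosen after the data were seen. The median member difference was −0.17 against −0.15 over all genes, and Col3a1, Col5a2 and Col6a1 overlapped between the groups. Col1a2 was at 2087 and 1633 against 423 CPM (−2.09 ± 0.40) and Col17a1 at 9.78 and 14.6 against 82.3 CPM (2.82 ± 0.39), both at an edgeR adjusted p of 0.917. That fit rests on 1 NP137 library with 185 cells.

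Of the genes that act on collagen, none of 18 modification and folding, 12 processing and cross-linking and 8 receptor genes passed edgeR in YFP-positive cells, with 7, 8 and 4 lower at an unadjusted p under 0.05 and 1, 0 and 1 higher. By DESeq2, 5, 7 and 3 were lower. The oxidase Loxl3 was at 150 and 398 CPM against 6.90 and 3.21 (−5.50 ± 0.67) and Adamts2 at 155 and 66.4 CPM against 3.71 and 4.34 (−4.55 ± 0.57). Fkbp14, a prolyl isomerase of collagen folding, was at 23.5 and 39.7 CPM against 4.01 and 2.91, and Serpinh1 at 567 and 535 against 255 and 149. Itga2 was the receptor above, at 17.5 and 22.8 CPM against 61.6 and 108 (2.35 ± 0.40).

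In fibroblast-like cells no member passed. edgeR called 0 of 29 members and 0% of 11465 genes, the unadjusted p was under 0.05 for 5 members and 339 genes, and by DESeq2 0 members and 8 genes passed. Col3a1 was at 12648 and 15100 CPM in the controls and 7895 and 15480 CPM with NP137 (−0.15 ± 0.39), and Col1a1 at 15544 and 11465 CPM against 9580 and 12253 (−0.24 ± 0.31). Col1a2 was at 13274 and 10432 CPM against 7491 and 13002 (−0.13 ± 0.37). In each of these 3 main chains the groups overlapped, with NP137 1 the lowest library.

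Of the 29 members, 24 had a fold change below 0, with a median of −0.39 against −0.02 over all genes. Col15a1, the multiplexin of the outer basement membrane, was at 433 and 251 CPM against 121 and 157, without overlap (−1.23 ± 0.39, unadjusted p = 0.021, edgeR adjusted p = 0.969). Col28a1 was at 6.86 and 13.7 CPM against 23.9 and 18.9 (1.17 ± 0.38, edgeR unadjusted p = 0.024, adjusted p = 0.969). Within the Fmod-led cluster alone it was at 3.24 and 0 CPM against 2.19 and 7.22, and the groups overlapped. Col6a1, Col6a2 and Col5a3 had log2 fold changes of −0.75, −0.69 and −0.68 at an unadjusted p under 0.05. Pericyte markers in this class summed to 4085 and 897 CPM in the controls and 2866 and 4934 CPM with NP137, and epithelial markers to 308, 632, 2016 and 185 CPM. In the same order Schwann cell markers summed to 15.7, 95.2, 191 and 4.03 CPM. The mix of fibroblast-like clusters varied as well, with 437 of 776, 53 of 225, 306 of 1322 and 1811 of 3040 cells Fmod-led. The part of these markers and of this mix in the values was not tested. With the Gzme-led cluster added edgeR also called 0 members. In the Fmod-led cluster alone, which has at least 53 cells in each library, it called 0 of 26, with 10 members and 654 of 10372 genes at an unadjusted p under 0.05. In that cluster both NP137 values lay under both controls in 13 of the 26 members and in 2092 of all genes. Those alternatives were chosen after the data were seen.

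No gene of the 3 collagen pathway lists passed in fibroblast-like cells either, by edgeR or DESeq2. Pcolce2, an enhancer of procollagen C-proteinase, was at 72.4 and 74.5 CPM against 115 and 115 (0.72 ± 0.21, edgeR unadjusted p = 0.0169, adjusted p = 0.969), the smallest p of its list. Serpinh1 was at 1855 and 1619 CPM against 1793 and 2653, and the collagen uptake receptor Mrc2 at 340 and 156 CPM against 164 and 129.

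The difference between the 2 effects was tested directly, as the NP137 effect in YFP-positive cells minus that in fibroblast-like cells of the same libraries. Of 38 members tested 2 passed, both lower in YFP-positive cells, where edgeR called 0.0936% of 14965 genes lower. Col27a1 differed by −4.53 ± 0.42 and Col5a2 by −3.44 ± 0.33, both at an edgeR adjusted p of 0.0475. In fibroblast-like cells Col27a1 stood at 74.6, 103, 89.6 and 51.4 CPM in control 1, control 2, NP137 1 and NP137 2, and Col5a2 at 2746, 2211, 1754 and 1609 CPM. In fibroblast-like cells the groups overlapped for Col27a1, and for Col5a2 both NP137 values lay below both controls. Col1a1 (−3.26 ± 0.34), Col1a2 (−4.03 ± 0.44) and Col5a1 (−2.89 ± 0.33) were just outside, at an edgeR adjusted p of 0.0526. DESeq2 called 16 members, and leaving out 1 library at a time gave 11, 11, 11 and 4 (the last without NP137 2). Of the pathway lists, Lox passed (−3.72 ± 0.35, edgeR adjusted p = 0.0475), at 108 and 45.7 against 3.56 and 8.74 CPM in YFP-positive cells and 665, 396, 427 and 860 CPM in fibroblast-like cells.

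Compared with fibroblast-like cells, Epcam-low tumour cells made the same main chains at a lower level. Within control 1, control 2 and NP137 1, 23 of 30 members tested differed, 21 higher in fibroblast-like cells and 2 higher in tumour cells (edgeR, adjusted over 12017 genes). Of all genes, 11% were called higher in fibroblast-like cells and 8.25% higher in tumour cells, and the median member difference was 2.53. DESeq2 called 27 members. Col1a1 differed by 3.31 ± 0.18 (edgeR adjusted p = 4.19e-04), Col1a2 by 3.25 ± 0.36 and Col3a1 by 2.99 ± 0.34. Their fibroblast-like and Epcam-low values, given above, did not overlap.

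Fibril-associated and beaded-filament chains differed as well. Col12a1 was at 1817, 1100 and 1808 CPM in fibroblast-like cells against 239, 62.4 and 169 (3.60 ± 0.27), and Col6a3 at 1985, 1904 and 1407 against 141, 217 and 283 CPM (3.20 ± 0.33). Col15a1 differed by 4.51 ± 0.82 and Col28a1, at 6.86, 13.7 and 23.9 against 0.245, 0.789 and 2.29 CPM, by 4.35 ± 0.41. Col6a5 and Col20a1 differed by 5.25 ± 0.74 and 4.43 ± 0.80, at 7.77 CPM or less in every library. Col26a1 had 21 UMIs in fibroblast-like and 1 in Epcam-low cells, a ratio of 149 with an exact 95% interval of 23.9 to 6158.

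The 2 members higher in tumour cells were neighbours on the X chromosome, and Col4a5 is described here as singled out after its values were seen. Col4a5 was at 38.7, 26.8 and 6.86 CPM in Epcam-low cells against 6.502, 4.55 and 0.674 CPM in fibroblast-like cells of control 1, control 2 and NP137 1 (−2.55 ± 0.28, edgeR adjusted p = 0.00365). Col4a6 was at 9.00, 9.57 and 1.14 CPM against 0.722, 0.828 and 0 (−3.55 ± 0.54, edgeR adjusted p = 0.00973). For both genes the tumour value was above the fibroblast-like value in each library, NP137 1 was lowest in both classes, and the groups of values did not overlap. The NP137 1 values rest on 1 UMI of Col4a6 and 6 of Col4a5 in Epcam-low cells and on 0 and 2 in fibroblast-like cells. Epithelial-like cells outside the YFP-positive clusters had Col4a6 at 9.33, 5.85, 2.65 and 0 CPM in control 1, control 2, NP137 1 and NP137 2. In the same order they had Col4a5 at 8.67, 8.93, 3.21 and 1.54 CPM. Col4a5 was thus higher in Epcam-low tumour cells than in epithelial-like cells in each of control 1, control 2 and NP137 1, while for Col4a6 the order differed between libraries. These 2 classes were not compared by a test. Col4a1 and Col4a2, the other head-to-head pair, differed in the opposite direction, by 1.87 ± 0.26 and 1.84 ± 0.25.

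Of the genes that act on collagen, part was higher in fibroblast-like cells. Of 18 tested modification and folding genes 14 were higher and 0 lower, of 12 processing and cross-linking genes 7 higher and 0 lower, and of 8 receptors 4 higher and Itga2 lower (−1.85 ± 0.30). The largest was Itga11, the fibroblast integrin for fibrillar collagen, with 7.16 ± 0.44.

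Fibroblast subtypes differed in 16 collagens, with the largest log2 span between clusters for the anchoring chain Col7a1 (4.66) and the fibril-associated Col14a1 (3.85) among those that passed. There were 3 fibroblast-like clusters, led by Fmod, by Coch and Apod, and by Clec3b and Pi16, the last a pair known from universal fibroblasts of the adventitia. Their cells were spread unevenly, with 437, 53, 306 and 1811 Fmod-led, 292, 168, 958 and 16 Coch-led and 47, 4, 58 and 1213 Clec3b-led cells in control 1, control 2, NP137 1 and NP137 2. An F test over the clusters, with library as a term, called 16 of the 26 members tested (edgeR, adjusted over 10086 genes), against 29.7% of all genes. DESeq2 called 21. With the Gzme-led cluster added, a choice made after the data were seen, 20 of 27 passed against 37.8% of all genes. Without control 1 or without NP137 1, 8 members passed in each case.

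Col14a1, which coats fibrils, was at 587, 575 and 653 CPM in the Clec3b-led cells of control 1, NP137 1 and NP137 2. It was at 166, 157, 65.8 and 95.3 CPM in the Fmod-led cells of the 4 libraries and at 81.8, 24.2 and 49.8 CPM in the Coch-led cells of control 1, control 2 and NP137 1 (edgeR adjusted p = 0.00611). The Clec3b-led values lay above all others, including the 51.8, 84.8 and 94.8 CPM of the Gzme-led cells of control 1, NP137 1 and NP137 2.

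Col7a1, the anchoring fibril chain (chr9:108953586-108984875), had the reverse order. It was at 3.23, 12.9 and 11.5 CPM in Clec3b-led cells, at 179, 52.5, 205 and 98.7 CPM in Fmod-led cells and at 291, 312 and 530 CPM in Coch-led cells (edgeR adjusted p = 0.00146). The Gzme-led cells had 1305, 1157 and 828 CPM, above every fibroblast-like value, and Col7a1 is among the leading genes of that cluster. No values of these 4 clusters overlapped for Col7a1. Thinned to 2000 UMIs, 73.8% to 80.8% of Gzme-led cells had a Col7a1 UMI, against 1.65% to 2.41% of macrophage-like cells.

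Col12a1 was at 223, 181 and 552 CPM in Clec3b-led cells and at 960 to 2159 CPM in Fmod-led and 1264 to 1650 CPM in Coch-led cells. The Gzme-led cells were highest again, at 3044, 2862 and 2908 CPM. Col8a1, a short-chain collagen of vessel walls, was at 793, 162, 432 and 532 CPM in the Fmod-led cells and at 41.4 to 120 CPM in the other fibroblast-like clusters (edgeR adjusted p = 1.56e-06). Its partner Col8a2 was at 6.75 to 22.7 CPM in the Fmod-led, 4.84 to 11.1 CPM in the Coch-led and 0 to 1.95 CPM in the Clec3b-led cells.

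Col28a1 was at 17.7 to 44.9 CPM in the Coch-led and 19.4 to 43.1 CPM in the Clec3b-led cells, but at 0 to 7.22 CPM in Fmod-led and 0 to 0.509 CPM in Gzme-led cells (edgeR adjusted p = 7.85e-05). Col23a1, a transmembrane collagen, was at 113 to 213 CPM in the Coch-led cells and 7.11 to 32.3 CPM in the Clec3b-led cells, without overlap. Col18a1 was likewise highest in the Coch-led cells, at 142 to 224 CPM against 36.5 to 100 CPM in the Fmod-led cells. Col15a1 was at 178 to 507 CPM in Fmod-led and 25.8 to 84.0 CPM in Clec3b-led cells. Col6a5 was at 25.8, 12.9 and 4.12 CPM in the 47, 58 and 1213 Clec3b-led cells of control 1, NP137 1 and NP137 2. In the other fibroblast-like cells it was at 0 to 7.74 CPM, a range that holds the NP137 2 value.

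Of the main chains, Col1a2 passed and Col1a1 and Col3a1 did not. Col1a2 was at 9617 to 14943 CPM in Fmod-led, 4309 to 6962 in Coch-led, 6933 to 13118 in Clec3b-led and 7636 to 10765 in Gzme-led cells (edgeR adjusted p = 0.027 over the 3 fibroblast-like clusters). Col1a1 was at 11573 to 17527 CPM in Fmod-led, 5056 to 8903 in Coch-led, 5667 to 11155 in Clec3b-led and 10838 to 15512 in Gzme-led cells, and did not pass (edgeR adjusted p = 0.118, DESeq2 0.00535). Col3a1 was at 9440 to 21214 CPM, 5285 to 7959 CPM, 11032 to 23943 CPM and 4594 to 7922 CPM in the same order, and did not pass either (edgeR adjusted p = 0.146, DESeq2 0.00446). In Clec3b-led cells Col3a1 exceeded Col1a1 in each of the 3 libraries, and in Gzme-led cells Col1a1 exceeded Col3a1 in each of 3. These counts are from 3′ ends, so they compare these genes without a length correction. Of the pathway lists, 16 of 17 modification and folding genes, 8 of 10 processing genes and 3 of 6 receptors tested differed among the 3 clusters.

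**Figure D4:**
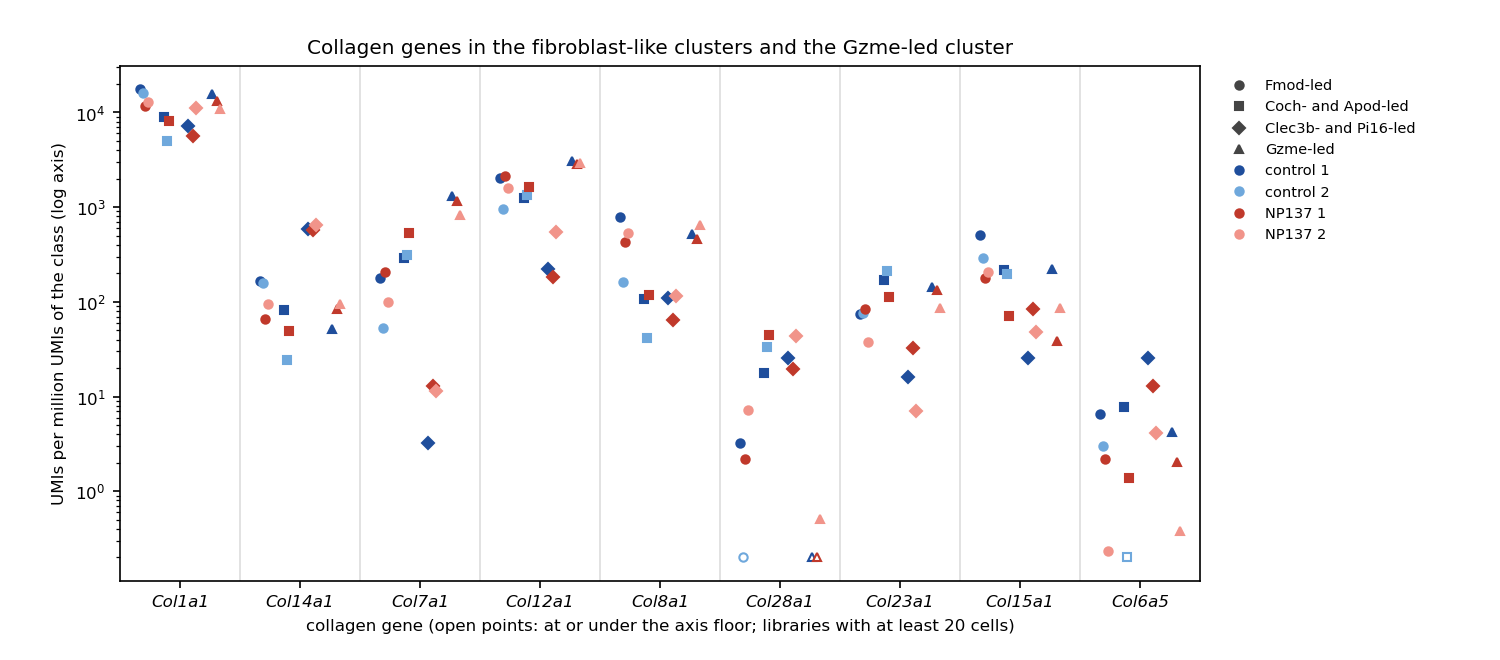
Points give the CPM (log axis) of 9 collagen genes in the Fmod-led (circles), Coch- and Apod-led (squares), Clec3b- and Pi16-led (diamonds) and Gzme-led (triangles) cells of each library with at least 20 such cells; open points are at or under the floor of the axis. The Col7a1 points run from 3.23 to 12.9 in Clec3b-led cells to 828 to 1305 in Gzme-led cells, while the Col14a1 diamonds (575 to 653) are above all other Col14a1 points.

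Vessel cells shared their basement membrane collagens and differed in most others. Pericyte or smooth muscle-like cells wrap the endothelium, and here they were marked by Rgs5 (3948 to 7763 CPM against 6.08 to 32.0 in endothelial cells), while endothelial cells, blood and lymphatic together, were marked by Pecam1 (969 to 1092 CPM against 2.08 to 7.36). Within the 4 libraries, 18 of 24 members tested were higher in pericyte-like and 2 higher in endothelial cells (edgeR, adjusted over 10037 genes), where 20.9% and 19.4% of all genes were called. DESeq2 called 16 and 2. Of the genes that act on collagen, 14 of 19 modification and folding genes, 7 of 8 processing and cross-linking genes and 5 of 6 receptors tested were higher in pericyte-like cells, and 2, 1 and 1 were higher in endothelial cells, the last being Itga2 (−5.00 ± 0.36).

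Col4a1 (chr8:11198423-11312826), the member with the highest mean over libraries in both, was at 2948, 5353, 2699 and 2917 CPM in pericyte-like cells and 3043, 4236, 1811 and 3075 CPM in endothelial cells of control 1, control 2, NP137 1 and NP137 2. Its difference of 0.30 ± 0.11 passed edgeR (adjusted p = 0.0465) but not DESeq2 (0.264), and the values overlapped. Col4a2 was at 1717, 2356, 1669 and 1420 CPM against 1872, 2075, 1232 and 1814 (0.14 ± 0.12, edgeR adjusted p = 0.393). In pericyte-like cells Col1a1 lay above Col4a1 in control 1 and NP137 2. Col18a1 was at 983, 1688, 1036 and 653 CPM against 874, 1090, 730 and 779, and Col15a1 at 447, 523, 309 and 472 CPM against 489, 703, 365 and 467, and neither passed. Thinned to 2000 UMIs, Col4a1 had a UMI in 96.4% to 98.1% of pericyte-like and 85.9% to 96.96% of endothelial cells, against 3.92% to 5.19% of macrophage-like cells.

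Beaded-filament and fibrillar chains were the pericyte-like side. Col6a3 was at 1900, 1959, 1394 and 1599 CPM against 16.4, 22.9, 28.7 and 67.4 (5.87 ± 0.51, edgeR adjusted p = 0.0015), and Col6a2 and Col6a1 differed by 5.79 ± 0.26 and 5.37 ± 0.27. Col5a3, a minor chain of type V, was at 1017, 1059, 696 and 687 CPM against 14.2, 13.03, 16.4 and 24.9 (5.75 ± 0.29). Of all classes pericyte-like cells had its highest mean, but the Gzme-led values overlapped theirs. Those were at 971, 636 and 967 CPM in control 1, NP137 1 and NP137 2. Col1a1 was at 2966, 3433, 2157 and 4823 CPM against 174, 118, 74.7 and 422 (4.42 ± 0.29), and Col5a1, Col5a2, Col1a2 and Col3a1 differed by 4.11, 4.19, 3.97 and 3.97. In macrophage-like cells, for comparison, Col1a1 was at 83.2 to 307 CPM and Col3a1 at 51.6 to 314 CPM, ranges that overlap the endothelial ones. The paralogous beaded-filament chains Col6a5 and Col6a4, which lie side by side on chromosome 9, had 94 and 80 UMIs in pericyte-like cells and 1 each in endothelial cells. Pooled over libraries these are ratios of 85.6 (exact 95% interval 14.99 to 3416) and 72.8 (12.7 to 2913). Libraries differed widely for Col6a5, at 14.0, 42.5, 22.0 and 1.04 CPM in pericyte-like cells of control 1, control 2, NP137 1 and NP137 2.

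Col13a1 (chr10:61838236-61979108), a transmembrane collagen, was 1 of the 2 members higher in endothelial cells. It was at 216, 323, 391 and 335 CPM in endothelial cells and 3.30, 19.6, 1.05 and 0.779 CPM in pericyte-like cells of control 1, control 2, NP137 1 and NP137 2 (−5.94 ± 0.84, edgeR adjusted p = 0.00891), and at most 3.79 CPM in fibroblast-like cells. Within the endothelium it was at 256, 336, 442 and 373 CPM in blood endothelial-like cells and 0 in the lymphatic endothelial-like cells of the 3 libraries with at least 20 of them. At a depth of 2000 UMIs it had a UMI in 23.4% (17.9 to 29.8), 33.2% (27.2 to 39.6), 35.7% (29.8 to 41.9) and 37.4% (31.1 to 44.0) of endothelial cells, against at most 0.151% of macrophage-like cells. Col13a1 is also among the leading genes of the blood endothelial-like cluster.

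Lymphatic cells differed from blood endothelial-like cells in further members. Col23a1, also transmembrane and singled out after its values were seen, was at 34.3, 9.43, 15.6 and 17.1 CPM in endothelial cells against 0, 4.09, 2.10 and 3.89 in pericyte-like cells (−2.52 ± 0.55), and within the endothelium at 207, 113 and 149 CPM in lymphatic cells of control 1, NP137 1 and NP137 2 against 2.46 to 3.27 CPM in blood endothelial-like cells. Col15a1 was at 0 in those lymphatic cells and 414 to 732 CPM in blood endothelial-like cells. Col4a1 was at 409, 359 and 780 CPM against 2003 to 4374 CPM. The blood and lymphatic values did not overlap in any of these 4 members, and they were not tested.

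**Figure D5:**
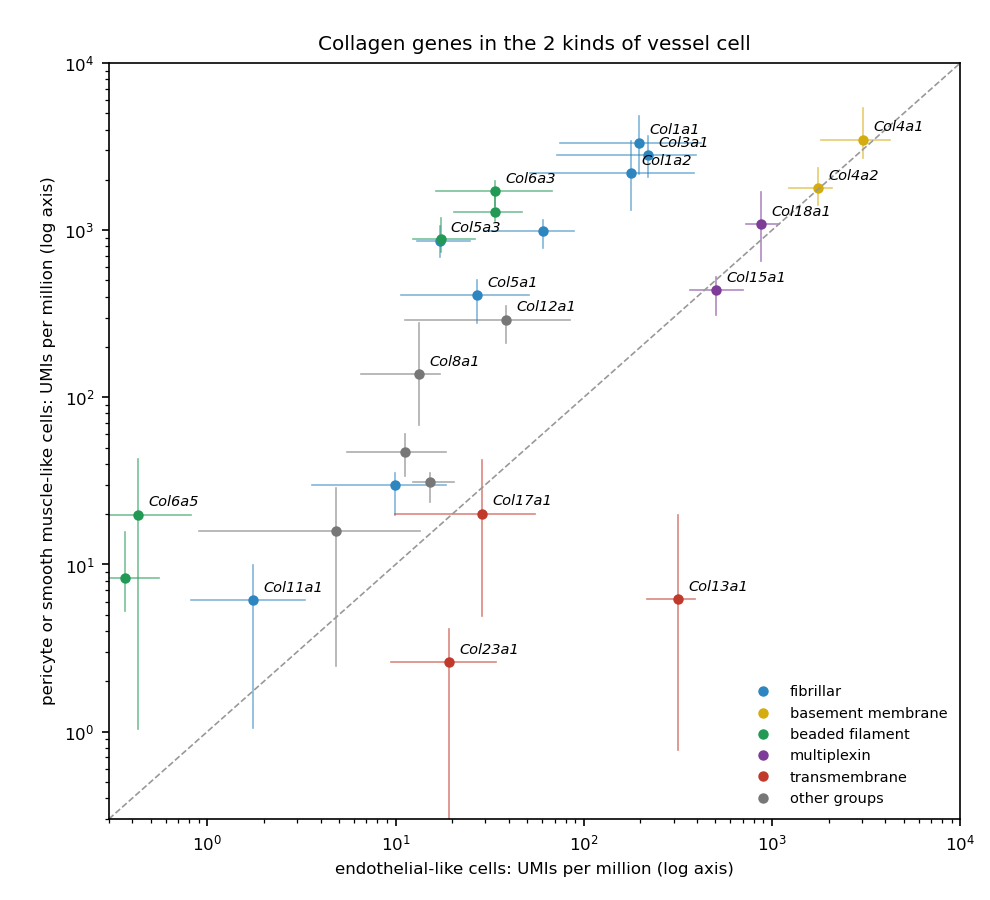
Each point is a collagen gene, at its mean CPM over the 4 libraries in endothelial cells (horizontal, log axis) and in pericyte or smooth muscle-like cells (vertical, log axis), with lines from the lowest to the highest library; the dashed line marks equal levels. Col4a1, Col4a2, Col15a1 and Col18a1 lie on or near the line, Col13a1 and Col23a1 well below it, and the type VI and fibrillar chains above.

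With NP137 no member passed in either vessel class. In endothelial cells edgeR called 0 of 21 members and 0% of 9522 genes, with 1 member and 781 genes at an unadjusted p under 0.05, and DESeq2 called 0. That member was Col6a3 (1.35 ± 0.45, edgeR adjusted p = 0.596). Col4a1 differed by −0.52 ± 0.31 and Col13a1 by 0.49 ± 0.27, the latter with both NP137 values above both controls. In pericyte-like cells edgeR called 0 of 22 members and 0% of 8807 genes, with Col5a3 (−0.57 ± 0.20, edgeR adjusted p = 0.97) the member at an unadjusted p under 0.05 and 338 genes in all, and DESeq2 called 0 members and 7 genes. Fibroblast markers in the pericyte-like class summed to 1564, 2627, 2003 and 881 CPM in control 1, control 2, NP137 1 and NP137 2.

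In epithelial-like cells outside the YFP-positive clusters Col17a1 had the highest mean over libraries of all members, though Col1a1 and Col1a2 lay above it in NP137 2. These cells lay in clusters where 24.2% and 39.7% of cells had a YFP UMI, so the class can hold tumour cells. Col17a1 was there at 698, 601, 407 and 388 CPM in control 1, control 2, NP137 1 and NP137 2. In the Epcam-high tumour cells it was at 956, 592, 370 and 676 CPM in the same order. The ranges overlapped, and the 2 classes were not compared by a test. Thinned to 2000 UMIs it had a UMI in 82.9%, 51.4% and 65.1% of Epcam-high tumour cells of control 1, NP137 1 and NP137 2 (exact 95% intervals 78.6 to 86.8, 49.5 to 53.4 and 61.7 to 68.3), and in 3.11% to 5.94% of macrophage-like cells.

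Col27a1 had a further site outside the stroma, named here after its values were seen. In T or NK-like cells it was at 94.3, 134, 57.6 and 4.04 CPM in control 1, control 2, NP137 1 and NP137 2, above the fibroblast-like value of the same library in both controls and below it in both NP137 libraries. In control 1, control 2 and NP137 1 most of these UMIs lay in the cluster led by Cd3g, Trdc and Cd7. There Col27a1 was at 365, 256 and 229 CPM (29, 76 and 22 UMIs in 34, 46 and 69 cells). The other cluster of the class, led by Ms4a4b and Ccl5, had 0 to 35.5 CPM, from 13, 0 and 8 UMIs in these libraries. NP137 2 had 1 cell of the Trdc cluster, with 1 UMI, against 8 UMIs in the other cluster. In the Gzme-led cells, the stromal cells with the highest mean, Col27a1 was at 132, 111 and 78.6 CPM. At 2000 UMIs, 17.9% (10.2 to 28.3), 27.6% (18.5 to 38.2), 15.6% (6.49 to 29.5) and 0.291% (0.00736 to 1.61) of T or NK-like cells had a Col27a1 UMI, against 0.302% to 1.32% of macrophage-like cells. Thinning left out 141, 7, 388 and 466 T or NK-like cells with fewer UMIs.

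Type I collagen is mostly built of both Col1a1 and Col1a2 chains. The log2 ratio of their UMIs was 0.67, 0.67, 0.70 and 0.50 in pericyte-like cells and 0.23, 0.14, 0.36 and −0.09 in fibroblast-like cells of control 1, control 2, NP137 1 and NP137 2. The fibroblast-like ratio was lower in each library, with a mean difference of −0.48 (exact sign-flip permutation p = 0.125, the smallest that 4 libraries allow, 0.625 adjusted over 10 pairs of classes). The Gzme-led cells were at 0.53, 0.42 and 0.51. YFP-positive cells ranged from −0.45 in control 2 to 0.91 in NP137 1, wider than any stromal class, and their NP137 to control difference of 0.73 had an exact permutation p of 0.333.

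Several members are counted over ground they share with other genes. Col10a1 (with Nt5dc1), Col18a1 (with Slc19a1), Col12a1, Col14a1, Col15a1, Col22a1, Col24a1, Col4a1, Col4a2, Col6a4 and Col9a3 overlap a gene of the opposite strand that the files also list, and the strand used in counting is not given in the sources used here. Their counts could therefore hold reads of that partner. Col10a1, the hypertrophic cartilage collagen, had 182 UMIs in all cells, 86 of them in 3 Gzme-led cells of control 2. Col2a1, Col9a2, Col22a1 and Col26a1 had 29 to 49 UMIs each, and Col4a3, Col6a6, Col9a3 and Col20a1 had 80 to 120, so that their absence from a class was not detectable at this depth.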

How the data were processed

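Single-cell RNA from 4 tumour libraries was deposited by the authors as raw UMI counts per gene and barcode, whole numbers without normalization. Per the file headers the matrices came from 10x software 3.0.2, and the submitters' processing notes name mm10 and Seurat 3.1.5. The cell-calling rule and the counting strand were not given in the sources used here. A barcode was kept when it had 200 or more genes and when mitochondrial genes gave less than 20% of its UMIs. The barcodes with the highest Scrublet scores were removed as doublets, at 0.8% per 1000 barcodes. Cells were clustered in Python 3.11.15 with scanpy 1.11.5 and leidenalg 0.10.2 (2000 variable genes without collagens, 30 components, 15 neighbours, resolution 1), pooled without batch integration.

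Counts were summed per library and class, with at least 20 cells per sum. Sums were tested in R 4.3.3 with edgeR 4.0.16 (TMM, filterByExpr, robust quasi-likelihood F test, Benjamini-Hochberg over all genes, threshold 0.05), and DESeq2 1.42.0 was an alternative. SE was computed as the absolute log2 fold change over the square root of F. CPM in the text is unadjusted for TMM. Exact 95% intervals and the floor of 3 UMIs cover counting error only, since libraries rather than cells are the replicates. Shares of cells were computed after thinning cells to 2000 UMIs. The scripts were tested on simulated data.

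Named genes were, per comparison, up to 10 members that passed, ordered by size of difference, the 6 of highest mean, the 3 highest of each class, and of each pathway list the 3 smallest p in the YFP-positive and fibroblast-like tests. The members, gene lists and comparisons were chosen with earlier results of these data known. A further allele that all 4 libraries share is not reported here.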

Additional observations from a re-analysis of the deposited data

Results flagged for a closer look

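The NP137 effect differed between YFP-positive and fibroblast-like cells in 2 collagen genes, by a test of the difference itself (edgeR, adjusted p = 0.0475 for each). For Col27a1 the effect in YFP-positive cells minus that in fibroblast-like cells was −4.53 on the log2 scale. Over 10 alternatives it ranged from −4.85 to −3.85, with adjusted p from 5.07e-12 to 0.0679, and the call was lost when no doublets were removed. For Col5a2 the difference was −3.44. Over 10 alternatives it ranged from −3.81 to −3.14, with adjusted p from 2.36e-11 to 0.0486. The share of Epcam-low cells among YFP-positive cells moved with this contrast, and its part in the difference was not tested.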

How the results depend on the processing

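Of the alternatives to the values reported, 115 changed no direction or call, 25 moved a value and 6 turned a sign. In YFP-positive cells the count of members called with NP137 went from 0 to 19 with DESeq2, to 11 with no filter on low counts, and to between 0 and 6 with 1 library left out. With no filter it was 2 in endothelial and 1 in pericyte-like cells, where leaving out 1 library gave 0 to 1 (1 without NP137 1). The count of members whose NP137 effect differed between YFP-positive and fibroblast-like cells went from 2 to 16 with DESeq2, 14 with no filter, 4 with no doublets removed, 6 with collagens kept among the variable genes, and 4 to 11 with 1 library left out. Among fibroblast-like clusters it went from 16 to 30 with no filter and to between 8 and 17 with 1 library left out.

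The summed collagen difference in fibroblast-like cells, −102 per 10000, became 17.9 as a mean of the cells' own shares. In pericyte-like cells, −30.0 became 9.68 with no doublets removed, and −65.1 to 5.23 with 1 library left out (4.58 without control 2 and 5.23 without NP137 1). With 1 library left out, the Col1a1 to Col1a2 ratio difference ran from −0.27 to 0.17 in fibroblast-like and from −0.17 to 0.0342 in pericyte-like cells, with the positive values without NP137 2. In endothelial cells it was 0.51 with no doublets removed. The share of cells with a Col1a1 UMI in fibroblast-like cells of control 1 was 92.9% at 1000 UMIs and 96.4% without thinning. Col4a1 in endothelial cells of control 1 was at 81.1% at 1000 UMIs, and Col17a1 in Epcam-high cells of NP137 1 at 34.5% and, without thinning, 87.1%. The cause of these changes was not tested.

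Sample numbers did not pair the libraries: same-numbered deviations correlated at 0.03, −0.12, −0.01 and −0.06 in YFP-positive, fibroblast-like, endothelial and pericyte-like cells. The replicate block gave 0 members in each of these classes and 10 in the test of the difference of effects. With the numbers crossed, 0, 0, 0 and 19 genes were called, and 0 members.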
